A study of Homo sapiens with 12 samples.

Results

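The transcription factors that specify and maintain the melanocyte lineage were followed after silencing of CITED1 in HT144, an established human melanoma cell line. The members were MITF and 9 factors that act with it or around it, namely SOX10, PAX3, TFAP2A, SNAI2, SOX9, ZEB1, ZEB2, POU3F2 and TWIST1. Every probe annotated to 1 of these 10 symbols was taken, which gave 22 of the 47315 probes on the array, for 10 of the 20045 genes named on it. There were 5 probes for TFAP2A, 4 for PAX3, 3 for MITF, 2 each for SNAI2, ZEB2 and POU3F2, and 1 each for SOX10, SOX9, ZEB1 and TWIST1. Each probe is reported on its own, because the MITF probes were known from earlier results of these data to disagree.

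HT144 cells were transfected, with Lipofectamine2000, with #1 siCITED1, with #3 siCITED1, which are a pair of siRNAs against CITED1, or with siNEG, a negative control siRNA that targets no transcript. RNA was taken after 48 h from 4 wells for each siRNA, and each well was read on 1 Illumina HT-12 array, 12 arrays in all. All groups are thus lipofected cells of a single line, the 4 wells of a group were plated on 1 day from 1 passage, and no untransfected cells were compared. The tests of each siRNA against siNEG and between the siRNAs thus set differences against well-to-well spread within 1 experiment. In the pooled comparison, fitted with 2 groups, the spread also holds any difference between the siRNAs. Values are log2 and were centred by the authors on each probe and each array, so 0 is the mean of a probe over the 12 arrays. They carry no absolute level, and neither the presence of a transcript nor the melanocytic identity of HT144 can be read from them, only differences between groups.

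MITF regulates melanin synthesis, survival and the cell cycle in pigment cells, as a dimer on DNA with an E-box core. Its melanocyte isoform, MITF-M, is made from a promoter of its own, at which SOX10, PAX3, CREB and LEF/TCF factors are known to act, and POU3F2, also called BRN2, is a POU factor described both as an activator and as a repressor of MITF in melanoma cells. TFAP2A shares many regulatory elements with MITF in pigment cells. SNAI2, ZEB1, ZEB2 and TWIST1 are E-box binding regulators of epithelial-mesenchymal transition, and in melanoma SNAI2 and ZEB2 are known to go with the differentiated state and ZEB1 and TWIST1 with the invasive state. CITED1 itself does not bind DNA and works through the coactivators CBP and p300.

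A promoter of MITF at which SOX10 and PAX3, among others, are known to act is shown first. It is the 250 bases before the most 3′ of the 3 MITF start sites in the RefSeq promoter table, the place of the MITF-M promoter (chr3:69936342-69936591 of GRCh38.p14, + strand), and capitals mark the matches to the motifs searched.
MITF-M promoter: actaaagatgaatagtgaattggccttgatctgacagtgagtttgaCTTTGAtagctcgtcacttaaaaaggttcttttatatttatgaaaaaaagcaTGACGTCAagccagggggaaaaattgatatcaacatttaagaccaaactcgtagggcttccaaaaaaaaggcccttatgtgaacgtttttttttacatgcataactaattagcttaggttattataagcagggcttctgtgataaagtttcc
The first run of capitals is the LEF/TCF letters CTTTGA, whose first base lies at -204 from the start, and which are held by 11.2% of the 35116 promoters in the table. The second is TGACGTCA, the cAMP response element bound by CREB, with its first base at -152, which is held by 1.65% of promoters. Both strands were searched, and the listed motifs do not overlap each other here. The E-box CANNTG, held by 61.8% of promoters, had no match in this window, nor did the SOX letters ACAAAG (13.7%) and ACAATG (9.29%) or the POU letters ATGCAAAT (1.63%). The M-box core TCATGTG (2.52%), the AP-2 letters GCCNNNGGC (19.8%) and the PAX letters GTCACG (7.93%) were also without a match. A match of letters is a description and not a bound site. Only these exact letters were searched in this window, so a motif without a match does not show that its factor has no site.

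The probe that carries the main result for MITF is shown by its first 30 of 50 bases, so that it can be placed on a transcript, in lower case throughout because no part is singled out.
MITF ILMN_2304186: aaatgatccacaccactcccccgattcccg
The 3 MITF probes were annotated to 3 different RefSeq transcripts of the gene. Which isoforms each probe reads, and whether MITF-M is among them, was not examined, so no probe is taken here as a reading of MITF-M. The 5 TFAP2A probes were annotated to 3 transcripts, with 2 pairs of probes sharing one.

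Silencing was read first. CITED1 (ILMN_1691641) stood at -0.14, -0.19, -0.13 and -0.25 with #1 siCITED1 and at -0.20, -0.33, -0.28 and -0.34 with #3 siCITED1, against 0.44, 0.35, 0.54 and 0.53 with siNEG. No array with an siRNA against CITED1 reached the lowest siNEG array, at 0.35. The difference from siNEG was -0.64 ± 0.06 with #1 (SE, limma adjusted p = 1.8e-07) and -0.75 ± 0.06 with #3 (adjusted p = 6.5e-08). On this probe the siRNAs differed by 0.11 (95% interval -0.03 to 0.24, adjusted p = 0.47). These values are RNA, and protein was not measured on the arrays. The lower mean was that with #3 siCITED1. The paper describes this same siRNA as less successful at silencing CITED1, with reference to a Western blot of the protein. Whether unequal silencing of the protein has a part in the differences between the siRNAs below was not tested.

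Of the 22 probes, 4 rose with #1 siCITED1, 4 rose with #3 siCITED1 and 3 rose when the 8 siCITED1 arrays were pooled, and 0 fell in any of these comparisons. The threshold was an adjusted p of 0.05 over all 47315 probes, at which 6.04% of all probes were called with #1 (2.79% higher and 3.25% lower), 2.54% with #3 (1.34% higher and 1.2% lower) and 1.11% in the pooled comparison (0.583% higher and 0.526% lower). The called probes belonged to the same 3 genes in each comparison, MITF, TFAP2A and SNAI2, and the other 7 genes had no called probe. The median difference of the 22 probes was 0.0588 with #1, 0.0464 with #3 and 0.0423 pooled, beside 0.0013, 0.00092 and 0.0014 over all probes. At an unadjusted p under 0.05, 9 of the 22 member probes passed with #1, 8 with #3 and 8 pooled, beside 14.9%, 11% and 9.59% of all probes. The comparisons with siNEG share their control arrays, so calls with #1 and with #3 are not independent of each other.

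**Figure D1:**
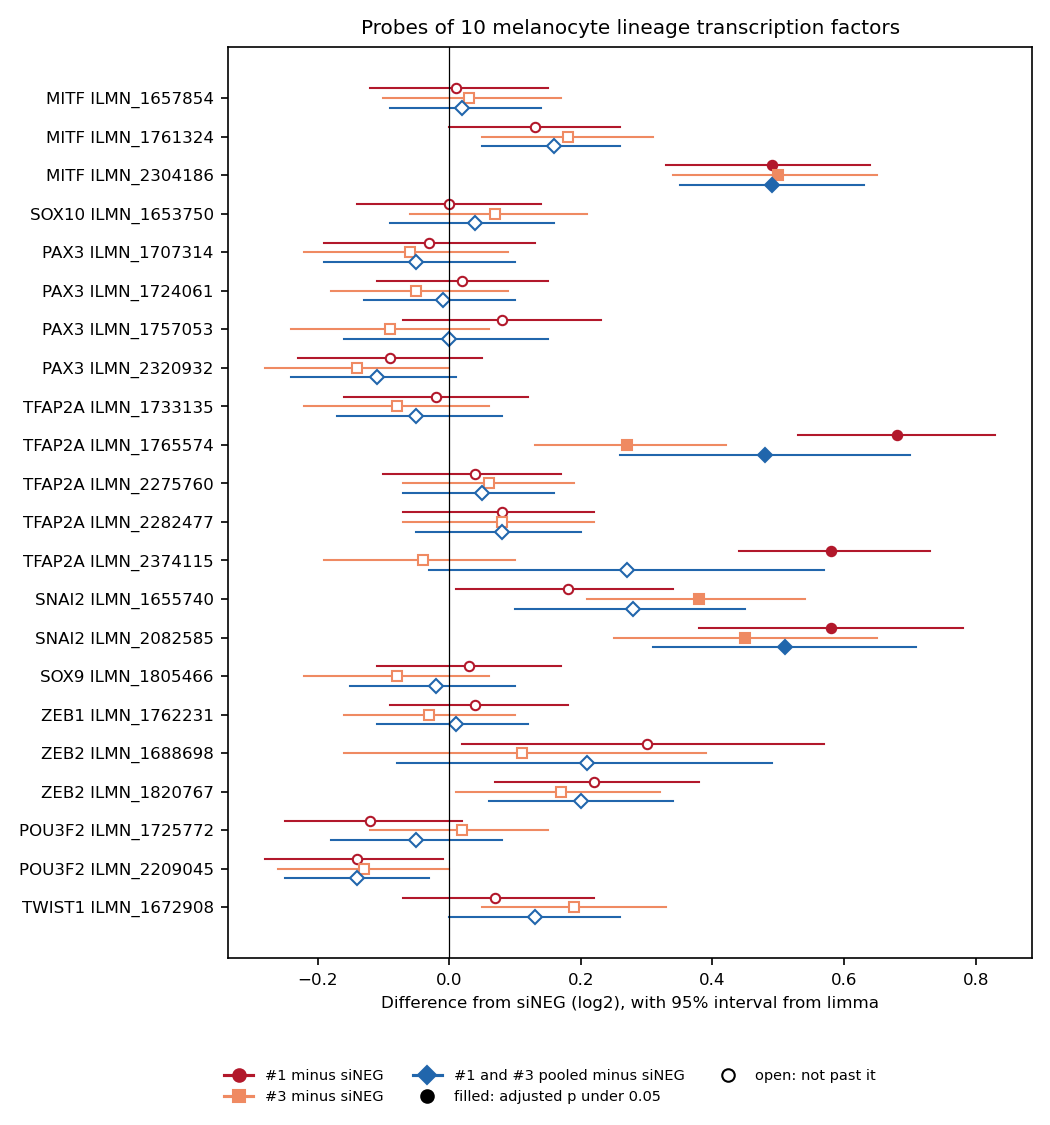
Difference from siNEG (log2, x axis) for each of the 22 probes (rows), with #1 siCITED1 (circles), #3 siCITED1 (squares) and both pooled (diamonds), bars giving limma's 95% interval and filled marks an adjusted p under 0.05. Filled marks are found for MITF, TFAP2A and SNAI2 alone, all to the right of 0, while differences of the other 7 genes lie between -0.14 and 0.30.

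MITF rose with both siRNAs on 1 of its 3 probes. ILMN_2304186 stood at 0.10, 0.36, 0.09 and 0.09 with #1 siCITED1 and at 0.30, 0.22, 0.03 and 0.12 with #3 siCITED1, against -0.36, -0.43, -0.19 and -0.33 with siNEG. The lowest siCITED1 array, at 0.03, lay above the highest siNEG array, at -0.19. The rise was 0.49 ± 0.08 with #1, which is 1.40-fold (SE, adjusted p = 8.8e-05), and 0.50 ± 0.08 with #3, which is 1.41-fold (adjusted p = 2e-04). No difference between the siRNAs was detected, at -0.01 with an interval of -0.16 to 0.15 (adjusted p = 0.98). In the pooled comparison the rise was 0.49 ± 0.07 (adjusted p = 0.00076), and the exact permutation test over arrays gave p = 0.00404, the smallest that 8 against 4 arrays allow.

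A second MITF probe, ILMN_1761324, shifted less. Its values were 0.01, 0.09, -0.01 and 0.03 with #1 siCITED1 and 0.04, 0.19, 0.04 and 0.03 with #3 siCITED1, against -0.02, -0.07, -0.12 and -0.20 with siNEG. The arrays of the groups did not overlap, but by only 0.01 at the closest pair. The difference was 0.13 ± 0.06 with #1 (adjusted p = 0.31), 0.18 ± 0.06 with #3 (adjusted p = 0.17) and 0.16 ± 0.05 pooled (adjusted p = 0.21), none of which passed, while the exact permutation test of this probe alone gave p = 0.00404 pooled.

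The third, ILMN_1657854, gave 0.09, -0.16, -0.01 and 0.08 with #1 siCITED1 and -0.02, 0.06, 0.07 and -0.04 with #3 siCITED1, against -0.05, 0.02, -0.07 and 0.04 with siNEG. Here the groups overlapped throughout. Its differences were 0.01 with #1 (interval -0.12 to 0.15), 0.03 with #3 (-0.10 to 0.17) and 0.02 pooled (-0.09 to 0.14), and each interval lies below the rise of ILMN_2304186.

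The MITF probes are set side by side as a description, since their disagreement was known beforehand. The pooled change of ILMN_1657854 was 0.47 smaller on the log2 scale than that of ILMN_2304186 (coded difference -0.47), and that of ILMN_1761324 was 0.34 smaller (-0.34). Over the members with several probes, 22 pairs of probes of a gene were compared within arrays by exact two-sided permutation of the arrays, in 66 tests, of which 19 were under 0.05 unadjusted and 0 after Benjamini-Hochberg adjustment, the smallest adjusted value being 0.0889. With 4 against 4 arrays no test could go below 0.0286, so the design limits this family of tests. Taken as 1 value per gene, the mean of the 3 probes, MITF differed from siNEG by 0.21 with #1 (adjusted p = 0.0045), 0.24 with #3 (adjusted p = 0.0042) and 0.22 pooled (adjusted p = 0.0048).

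**Figure D2:**
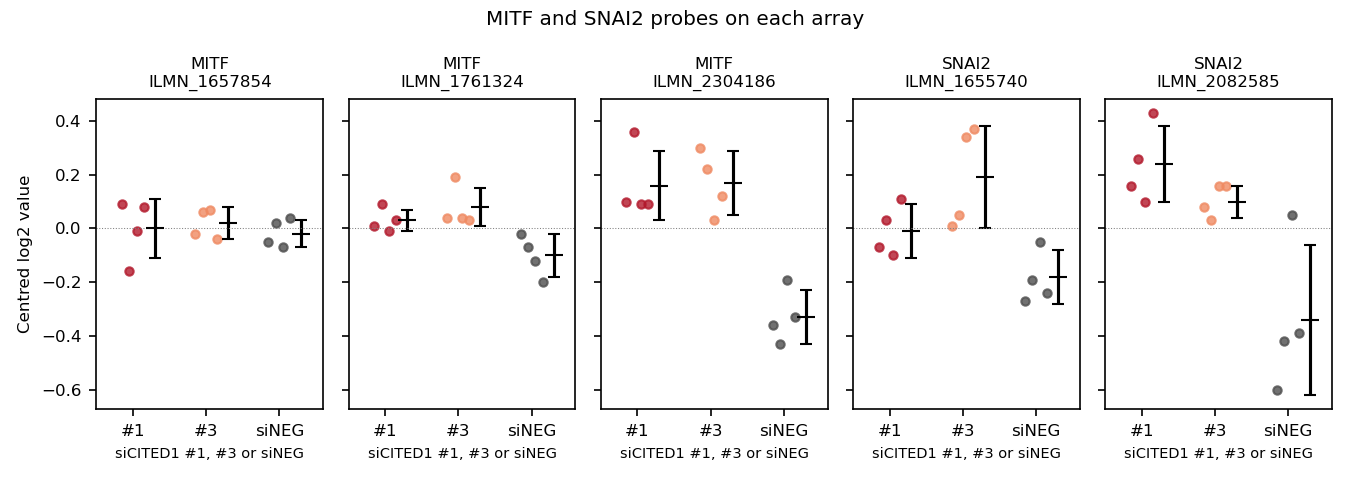
Centred log2 value (y axis) of the 3 MITF and 2 SNAI2 probes on each array, with #1 siCITED1, #3 siCITED1 and siNEG from left to right in each panel (4 points each) and the mean ± SD beside the points. MITF ILMN_2304186 is above 0 on all 8 siCITED1 arrays and at -0.19 or lower on all 4 siNEG arrays, and 1 siNEG array of SNAI2 ILMN_2082585 lies among the siCITED1 arrays.

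TFAP2A, the AP-2 alpha factor of neural crest and pigment cells, had the largest rise among the members with #1 siCITED1, but not with #3 or pooled, and was where the siRNAs differed. ILMN_1765574 stood at 0.52, 0.34, 0.41 and 0.18 with #1 siCITED1 and at 0.06, -0.03, -0.03 and -0.17 with #3 siCITED1, against -0.33, -0.34, -0.35 and -0.24 with siNEG. The groups formed 3 separate levels, with #1 highest, #3 between and siNEG lowest. The rise was 0.68 ± 0.07 with #1, or 1.60-fold (adjusted p = 4e-07), and 0.27 ± 0.07 with #3, or 1.21-fold (adjusted p = 0.037). Directly compared, #1 lay 0.41 ± 0.07 above #3 (adjusted p = 0.00035), in a comparison that called 7.46% of all probes (3.64% higher and 3.82% lower). The pooled rise was 0.48 ± 0.10 (adjusted p = 0.03). The call with #3 was lost without siNEG replicate 1, 2 or 3 or without #3 siCITED1 replicate 1, 2 or 3 (adjusted p between 0.059 and 0.14), and the pooled call without any 1 of the siNEG arrays (0.082 to 0.11) or #1 siCITED1 replicate 2 (0.056), with a robust prior (0.058) and with the replicate number as a block (0.083), with the rise itself between 0.24 and 0.50 in these fits.

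A further TFAP2A probe, ILMN_2374115, rose with #1 siCITED1 and not with #3. It stood at 0.33, 0.39, 0.40 and 0.48 with #1 siCITED1 and at -0.31, -0.13, -0.16 and -0.30 with #3 siCITED1, against -0.24, -0.11, -0.03 and -0.33 with siNEG. The 4 arrays of #1 stood apart and those of #3 lay within the range of siNEG. The rise with #1 was 0.58 ± 0.07 (adjusted p = 3.7e-06), while #3 differed from siNEG by -0.04 (interval -0.19 to 0.10, adjusted p = 0.92). Between the siRNAs the difference was 0.63 ± 0.07 (adjusted p = 1.1e-06). Pooled, the value was 0.27 ± 0.14 and did not pass (limma adjusted p = 0.6), in a fit whose spread includes the difference between the siRNAs. As the average of the 2 siRNA contrasts, with the spread taken within the 3 groups, it passed (limma adjusted p = 0.01). These were the 2 member probes called between the siRNAs, both higher with #1, and the other 20 were not called there. At an unadjusted p under 0.05, 4 of the 22 passed between the siRNAs, beside 16.3% of all probes.

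The remaining 3 TFAP2A probes stayed near 0. ILMN_1733135 differed from siNEG by -0.02 with #1 and -0.08 with #3, ILMN_2275760 by 0.04 and 0.06, and ILMN_2282477 by 0.08 and 0.08, with no adjusted p under 0.75. Array values of these probes ran from -0.19 to 0.19 over all 12 arrays, inside the range of the 2 probes that rose. ILMN_2275760 is annotated to the same transcript as ILMN_2374115, yet with #1 their changes differed by 0.55 (coded -0.55, exact permutation p = 0.0286, adjusted over the 66 tests 0.0992). As the mean of its 5 probes, TFAP2A differed from siNEG by 0.27 with #1 (adjusted p = 0.0004), 0.06 with #3 (adjusted p = 0.63) and 0.16 pooled (adjusted p = 0.23).

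**Figure D3:**
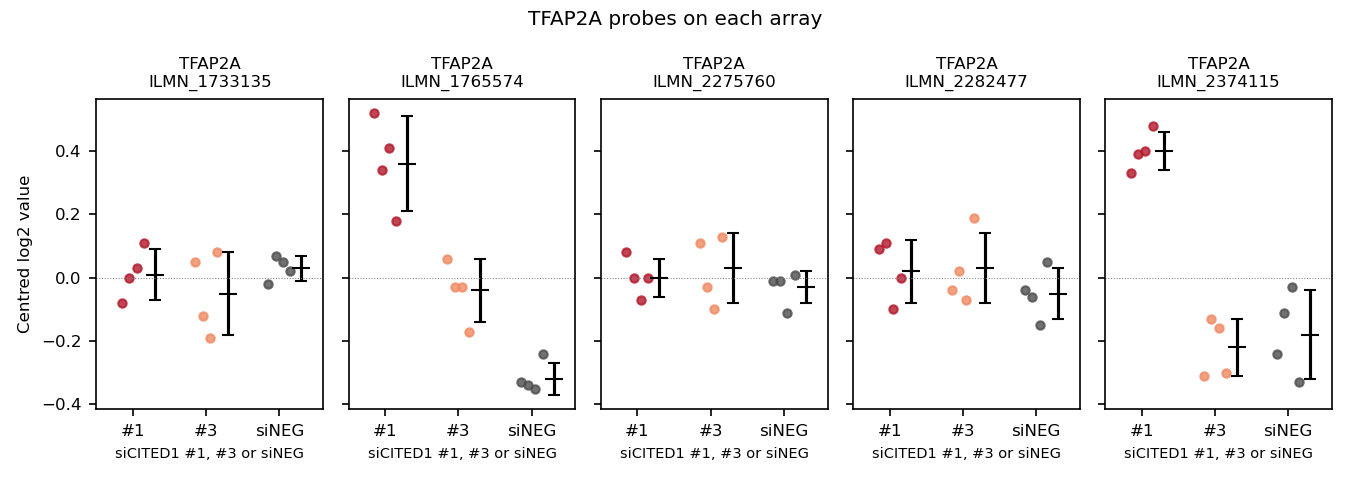
Centred log2 value (y axis) of the 5 TFAP2A probes on each array, with #1 siCITED1, #3 siCITED1 and siNEG from left to right in each panel (4 points each) and the mean ± SD beside the points. ILMN_1765574 forms 3 levels, at 0.36, -0.04 and -0.32 on average, ILMN_2374115 is high with #1 alone at 0.40, and the other 3 probes stay between -0.19 and 0.19.

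SNAI2, or Slug, a zinc finger repressor needed for melanocyte development, rose on both of its probes, though not each with each siRNA. ILMN_2082585 stood at 0.16, 0.26, 0.10 and 0.43 with #1 siCITED1 and at 0.08, 0.03, 0.16 and 0.16 with #3 siCITED1, against -0.60, -0.42, 0.05 and -0.39 with siNEG. All siCITED1 arrays were above 0, and siNEG replicate 3, at 0.05, lay above the lowest array of #3. The rise was 0.58 ± 0.10 with #1, or 1.49-fold (adjusted p = 0.00025), 0.45 ± 0.10 with #3, or 1.36-fold (adjusted p = 0.0092), and 0.51 ± 0.09 pooled (adjusted p = 0.01). The pooled call was lost without siNEG replicate 2 or siNEG replicate 4 (adjusted p = 0.053 in each case), with the rise at 0.49 and 0.50. The siRNAs did not differ detectably on this probe, at 0.13 with an interval of -0.07 to 0.33 (adjusted p = 0.6).

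ILMN_1655740 gave -0.07, 0.03, -0.10 and 0.11 with #1 siCITED1 and 0.01, 0.05, 0.34 and 0.37 with #3 siCITED1, against -0.27, -0.19, -0.05 and -0.24 with siNEG. Arrays of #3 fell into a low and a high pair, all 4 above siNEG, and those of #1 overlapped siNEG. The rise with #3 was 0.38 ± 0.08, or 1.30-fold (adjusted p = 0.0075), the value with #1 was 0.18 ± 0.08 (adjusted p = 0.29) and the pooled value 0.28 ± 0.08 (adjusted p = 0.15). A call with #3 and not with #1 does not by itself show a difference between them. Directly compared, #1 minus #3 was -0.20 with an unadjusted interval of -0.37 to -0.03, and it was not called (adjusted p = 0.17). The mean of both SNAI2 probes differed from siNEG by 0.38 with #1 (adjusted p = 0.0083), 0.41 with #3 (adjusted p = 0.0095) and 0.39 pooled (adjusted p = 0.015).

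SOX10, PAX3 and SOX9 were not called. SOX10 (ILMN_1653750), the SRY-box factor that keeps MITF on in melanocytes, gave 0.06, -0.05, -0.10 and -0.01 with #1 siCITED1 and 0.06, 0.19, -0.04 and -0.01 with #3 siCITED1, against 0.09, -0.05, -0.01 and -0.13 with siNEG. All 3 groups overlapped, and the difference was 0.00 with #1 (interval -0.14 to 0.14, adjusted p = 1) and 0.07 with #3 (-0.06 to 0.21, adjusted p = 0.8). PAX3, the paired-box partner of SOX10, had 4 probes whose differences ran from -0.09 to 0.08 with #1 and from -0.14 to -0.05 with #3. Its probe ILMN_2320932 gave 0.02, 0.05, -0.18 and 0.06 with #1 siCITED1 and -0.19, -0.09, 0.00 and 0.03 with #3 siCITED1, against 0.12, 0.05, 0.04 and 0.10 with siNEG. Arrays of #3 all lay below those of siNEG, by 0.01 at the closest pair, and the difference of -0.14 ± 0.07 did not pass (adjusted p = 0.45). SOX9 (ILMN_1805466), a SOX factor also linked to MITF expression, differed from siNEG by 0.03 with #1 (-0.11 to 0.17) and -0.08 with #3 (-0.22 to 0.06).

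POU3F2 did not pass on either probe. ILMN_2209045 gave -0.02, -0.14, -0.02 and -0.03 with #1 siCITED1 and -0.03, -0.04, -0.02 and -0.07 with #3 siCITED1, against -0.03, 0.03, 0.23 and 0.13 with siNEG. The siCITED1 arrays were all below 0 and overlapped the lowest siNEG array, and the pooled difference was -0.14 ± 0.05 (interval -0.25 to -0.03, adjusted p = 0.34). ILMN_1725772 stood at -0.10, -0.11, -0.06 and -0.06 with #1 siCITED1 and at 0.10, 0.03, 0.05 and 0.03 with #3 siCITED1, against 0.08, -0.11, 0.20 and -0.04 with siNEG. On this probe the arrays of #1 and #3 did not overlap, and siNEG spanned both. The siRNAs differed by -0.13 ± 0.07 (adjusted p = 0.33), in a comparison in which 10.9% of all probes had groups that did not overlap.

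Of the other E-box regulators, ZEB2 came closest to the threshold. ILMN_1820767 gave -0.11, 0.09, 0.29 and 0.10 with #1 siCITED1 and 0.02, 0.05, 0.08 and -0.01 with #3 siCITED1, against -0.20, -0.01, -0.05 and -0.26 with siNEG. The difference was 0.22 ± 0.08 with #1 (adjusted p = 0.088) and 0.17 ± 0.08 with #3 (adjusted p = 0.38). Without #1 siCITED1 replicate 1, the lowest array of its group, the value with #1 was 0.29 and passed (adjusted p = 0.019). The second ZEB2 probe, ILMN_1688698, had the widest spread of the members within groups, 0.28 (SD over the 12 arrays about their group means) beside a median of 0.10 over all probes. Its siNEG arrays alone stood at -0.69, 0.20, 0.23 and -0.29, and the difference of 0.30 ± 0.13 with #1 did not pass (adjusted p = 0.27). It was 0.11 without siNEG replicate 1 and 0.42 without siNEG replicate 3. ZEB1 (ILMN_1762231) differed by 0.04 with #1 (interval -0.09 to 0.18) and -0.03 with #3 (-0.16 to 0.10). TWIST1 (ILMN_1672908) differed by 0.07 with #1 (-0.07 to 0.22) and 0.19 with #3 (0.05 to 0.33, adjusted p = 0.2).

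**Figure D4:**
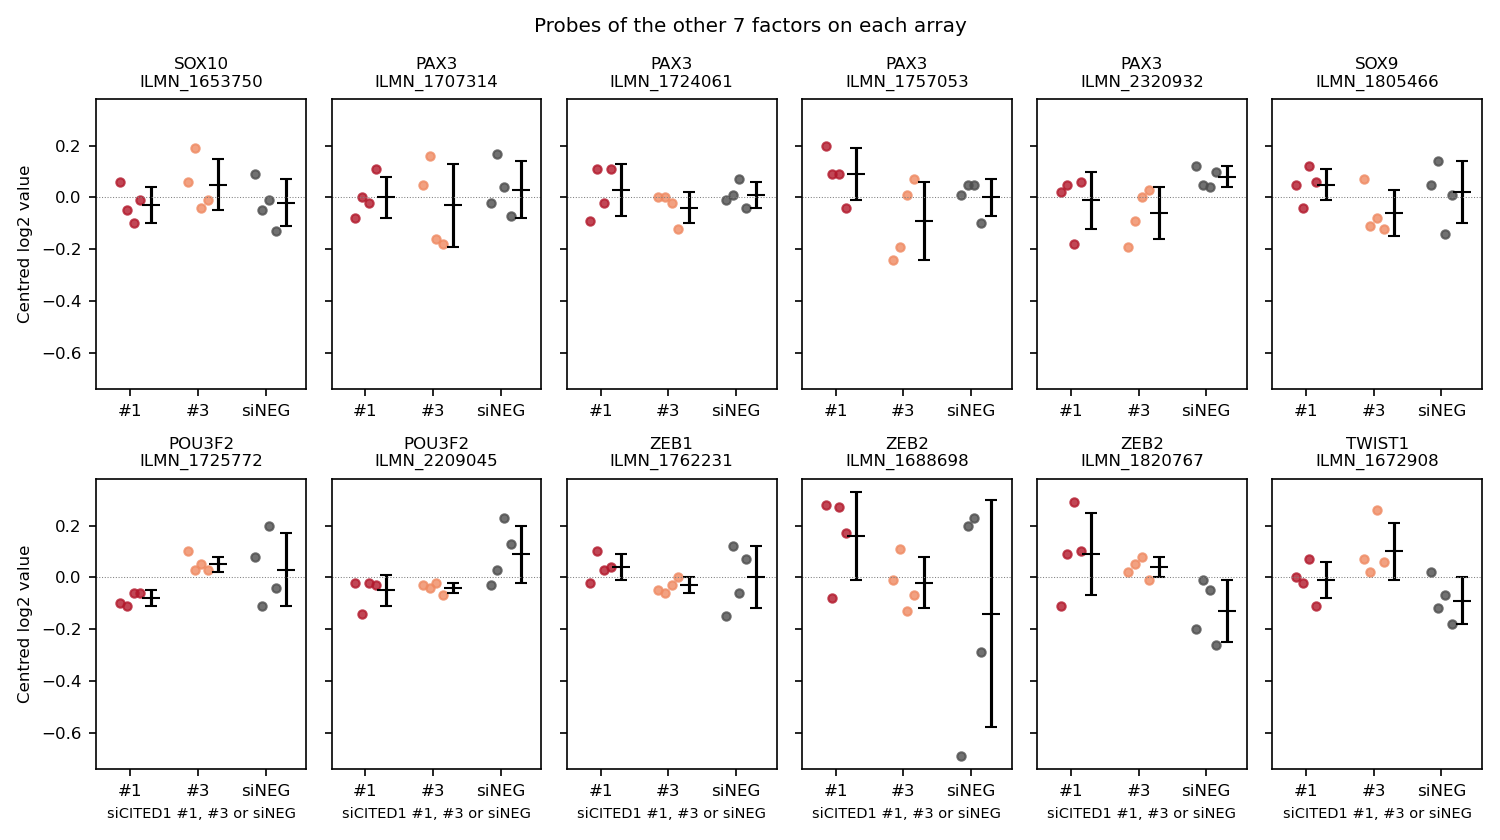
Centred log2 value (y axis) of the 12 probes of SOX10, PAX3, SOX9, POU3F2, ZEB1, ZEB2 and TWIST1 on each array, with #1 siCITED1, #3 siCITED1 and siNEG from left to right in each panel (4 points each) and the mean ± SD beside the points. No probe shown was called, and siNEG arrays of ZEB2 ILMN_1688698 reach from -0.69 to 0.23.

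Array groups did not overlap for 5 of the 22 member probes with #1 siCITED1 (9.19% of all probes), 6 with #3 siCITED1 (6.51%) and 3 in the pooled comparison (1.68%). Pooled, these 3 were MITF ILMN_2304186 and ILMN_1761324 and TFAP2A ILMN_1765574. With #1 the rises put the members in the order TFAP2A ILMN_1765574 (0.68), TFAP2A ILMN_2374115 (0.58), SNAI2 ILMN_2082585 (0.58) and MITF ILMN_2304186 (0.49), and with #3 in the order MITF ILMN_2304186 (0.50), SNAI2 ILMN_2082585 (0.45), SNAI2 ILMN_1655740 (0.38) and TFAP2A ILMN_1765574 (0.27). Neighbours in these orders have overlapping 95% intervals and were not tested against each other.

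Genes whose values ran most like a called probe were found by Pearson's r over the 12 arrays, given as a description because the arrays fall into 3 groups. MITF ILMN_2304186 ran closest to NFKBIA, the inhibitor of NF-kappa-B (r = 0.963), TRIM44 (0.934) and EIF3L, a subunit of a translation initiation factor (0.928). Closest to TFAP2A ILMN_1765574 were EDNRB, the endothelin receptor of melanoblasts (0.961), TNFRSF19 (0.96) and SMUG1, a DNA glycosylase (0.952). TFAP2A ILMN_2374115 ran with CAMLG (0.98), MEIS3P1 (0.975) and SPATA20 (0.971). SNAI2 ILMN_2082585 ran with POPDC1 (0.927) and ADCY1, an adenylate cyclase (0.92), and SNAI2 ILMN_1655740 with ITPRID2 (0.91) and H3-3A (0.904). None of the 3 genes named for one TFAP2A probe was among those named for the other.

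Around these factors, the relatives of MITF in the MiT/TFE family, TFEB, TFE3 and TFEC, had 5 probes and 0 were called with #1 siCITED1, with #3 or pooled. A TFEC probe was higher with #1 than with #3, by 0.25 (adjusted p = 0.03). Other transcription factors of the melanocyte lineage and neural crest had 66 probes for 37 genes. With #1, 9 rose, 5 fell and 52 did not pass, among them ID2, an inhibitor of helix-loop-helix factors, which rose on both probes (0.77 and 0.48), ID4 (0.43) and SOX8, which fell by 0.76. With #3, 5 rose, 2 fell and 59 did not pass. There SOX4 rose by 0.64, and LEF1, a factor of the Wnt pathway with sites at the MITF-M promoter, had a difference of -0.48 on 1 probe and -0.33 on the other. Pooled, LEF1 fell on 1 of its 2 probes (-0.35 ± 0.08, adjusted p = 0.028) and MEF2C, a MADS-box factor of neural crest derivatives, rose (0.31 ± 0.05, adjusted p = 0.0053), and 64 probes did not pass. The median of the list was -0.00564 with #1, 0.02 with #3 and 0.0151 pooled. The counts of this and the following lists stand beside 6.04% of all probes called with #1, 2.54% with #3 and 1.11% pooled.

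Coactivators and chromatin partners of MITF had 15 probes. CTNNB1, which encodes beta-catenin, rose on 1 of 7 probes, by 0.31 with #1, 0.45 with #3 and 0.38 pooled (adjusted p = 0.048, 0.0053 and 0.05, the last just under the threshold before rounding). CHD7, a chromatin remodeller, rose with #3 (0.52 ± 0.07, adjusted p = 5.6e-05) and was lower with #1 than with #3 (-0.68 ± 0.07, adjusted p = 3.4e-07). SMARCA2, a SWI/SNF ATPase, rose on 1 of its probes with #1 (0.31).

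Known target genes of MITF had 60 probes for 33 genes. With #1 siCITED1, 17 rose, 2 fell and 41 did not pass, led by PMEL (0.98 ± 0.10), a structural protein of melanosomes, MLANA (0.93 ± 0.07), the melanosomal antigen MART-1, TYR (0.93 ± 0.07), the rate-limiting enzyme of melanin synthesis, and GPNMB (0.72 ± 0.13). With #3 siCITED1, 8 rose, 6 fell and 46 did not pass. MLANA rose by 0.66 ± 0.07 and TYR by 0.27 ± 0.07 (adjusted p = 0.046), and GPNMB fell on both probes (-0.93 on each). MC1R, the melanocortin receptor, fell with #3 (-0.59 ± 0.07) and also with #1 (-0.33 ± 0.07, limma adjusted p = 0.0025). CAPN3 and RAB38 rose with both siRNAs. CAPN3 stood at 0.70 and 0.60 on its probes with #1 and at 0.56 and 0.48 with #3, and RAB38 at 0.72 and 0.39. PMEL with #3 was -0.20 ± 0.10 (adjusted p = 0.46). Pooled, 8 rose and 1 fell, with MLANA at 0.80, CAPN3 at 0.63 and 0.54 on its probes, RAB38 at 0.55 and MC1R, the probe that fell, at -0.46. Medians of the list were small, at 0.041 with #1, 0.0472 with #3 and 0.0246 pooled.

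Between the siRNAs, 17 of the 60 MITF target probes were higher and 3 lower with #1 than with #3. Over all probes, 3.64% were called higher and 3.82% lower in that comparison. The difference was 1.65 ± 0.13 and 1.56 ± 0.09 on the GPNMB probes, 1.18 ± 0.10 for PMEL, 0.81 ± 0.16 for HIF1A and 0.66 ± 0.07 for TYR, all called, beside -0.01 ± 0.08 for MITF ILMN_2304186. For CAPN3 the siRNAs did not differ detectably (0.14, interval -0.04 to 0.32, adjusted p = 0.51).

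**Figure D5:**
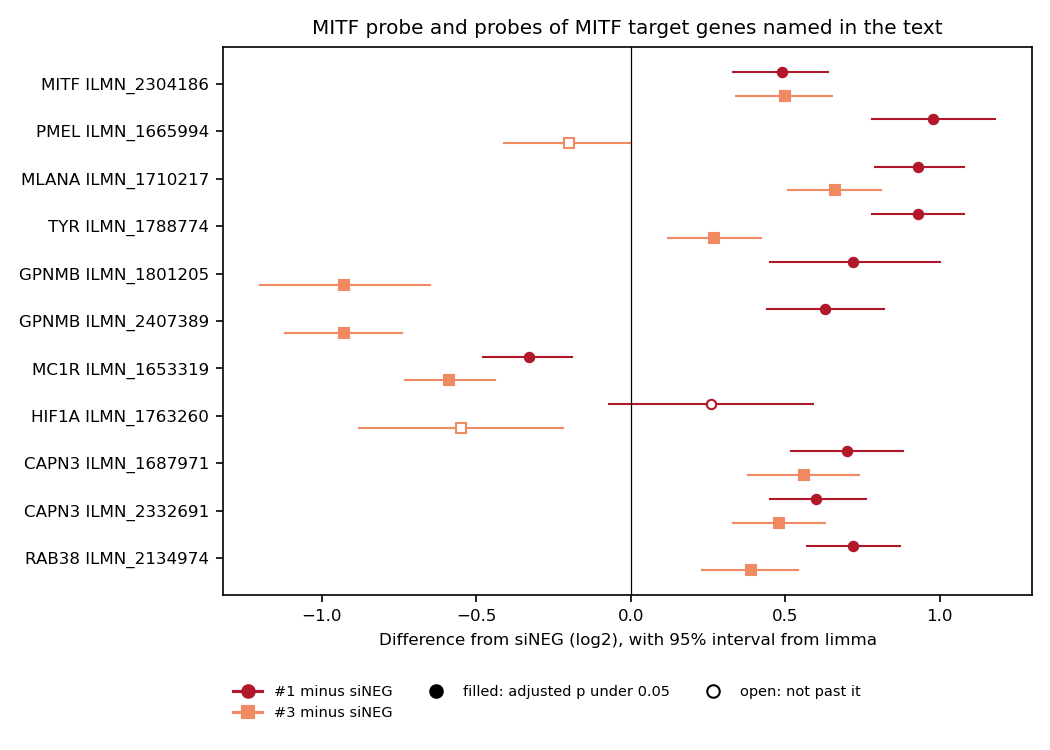
Difference from siNEG (log2, x axis) of MITF ILMN_2304186 and of the MITF target probes named in the text (rows), with #1 siCITED1 (circles) and #3 siCITED1 (squares), bars giving limma's 95% interval and filled marks an adjusted p under 0.05. MITF sits at 0.49 and 0.50 with the siRNAs, while GPNMB sits at 0.72 with #1 and -0.93 with #3 on ILMN_1801205.

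Target genes of SOX10 outside pigmentation had 10 probes. With #1, MBP, a myelin protein, rose on 2 probes (0.33 and 0.32) and NES, which encodes nestin, fell (-0.45), with #3 ERBB3 rose on 1 probe (0.42), and pooled 0 passed. Genes listed as targets of the E-box regulators SNAI2, ZEB1, ZEB2 and TWIST1 had 24 probes for 13 genes. This list holds epithelial genes, such as CDH1 and CLDN1, and mesenchymal genes, such as CDH2, VIM and FN1. Its counts and median mix both kinds. With #1, 3 rose and 0 fell, namely CLDN1, a tight junction protein (0.49), CDH2, N-cadherin (0.33), and 1 probe of FN1, fibronectin (0.24, adjusted p = 0.041). The other 2 FN1 probes were not called. With #3 and pooled 0 passed. The median of that list was 0.0134 with #1, -0.0155 with #3 and -0.00487 pooled. Other E-box factors of epithelial-mesenchymal transition, SNAI1 and TCF3 among them, had 12 probes, of which 1, for TCF12, rose with #1 (0.39) and 0 passed with #3 or pooled.

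Markers of cell types were read for differences only. Of 5 melanocytic markers, 4 rose with #1 siCITED1, 2 with #3 and 1, MLANA, pooled. The list of MITF targets also holds 4 of these 5. Of 4 keratinocyte and 3 endothelial probes, 0 were called in any comparison. Among 7 fibroblast probes, 2 for COL1A2 rose with #3 (0.47 and 0.43) and 0 passed with #1, and among 8 leukocyte probes 1 for CD68 fell with #3 (-0.34). In a monoculture of a cell line, whose markers have no level here, their part in the values of the members was not tested. Array SDs lay between 0.11 and 0.134.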

How the data were processed

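HT144 wells transfected with #1 siCITED1, #3 siCITED1 or siNEG (4 each) were read on Illumina HT-12 arrays. The authors quantile normalized the raw signals, removed control probes in BASE, and log2 transformed and gene- and sample-centred the values in MeV. The deposited log2 values (47315 probes) were used unfiltered, and base 2 is taken from the methods, as centring hides it. Background correction and versions of BASE and MeV are not given here. Arrays have no read depth, so precision is set by their number.

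The platform annotation gave 30105 probes 1 symbol. Differences were tested with limma 3.58.1 (R 4.3.3), with 3 groups for the single siRNAs and 2 groups for the pooled comparison, and every probe entered the Benjamini-Hochberg adjustment. Errors of differences are SEs and intervals are 95%. The fit was tested on simulated data. Exact permutation tests used scipy 1.17.1. The members and lists were chosen with earlier results of these data known. All member probes are named, with CITED1, up to 4 called probes of largest change per list and comparison, and the 5 closest probes in pattern, of which the first 2 or 3 are given. DCT and 7 other listed genes were matched to no probe and were not analysed here. Alternatives were the replicate number as a block, a second quantile normalization, a robust prior, named probes only, 1 value per gene, fewer groups in the fit, an average of both contrasts and leaving out each array. Promoter sequences are from RefSeq (GRCh38.p14), and the MITF probe sequence is from the study's supplementary tables. Member promoters were searched for 6 of the 10 genes, with chromosome 8, which holds SNAI2, left out of that search.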

Additional observations from a re-analysis of the deposited data

Results flagged for a closer look

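The siRNAs differed on 2 TFAP2A probes in the direct test. On ILMN_1765574 #1 siCITED1 lay 0.41 above #3 siCITED1 (adjusted p = 0.00035), with group means of 0.36 and -0.04. On ILMN_2374115 the difference was 0.63 (adjusted p = 1.1e-06), with means of 0.40 and -0.22.

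Single arrays stood far from the other 3 of their group, by Dixon's 95% criterion, in 5 of the 66 groups of member probes, and chance gives about 5%. With #1 siCITED1, replicate 2 was high on MITF ILMN_2304186 (0.36, the others 0.09 to 0.10), replicate 3 was low on PAX3 ILMN_2320932 (-0.18, the others 0.02 to 0.06) and replicate 2 was low on POU3F2 ILMN_2209045 (-0.14, the others -0.03 to -0.02). With #3 siCITED1, replicate 2 was high on MITF ILMN_1761324 (0.19, the others 0.03 to 0.04) and replicate 4 was low on PAX3 ILMN_1724061 (-0.12, the others -0.02 to 0.00).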

How the results depend on the processing

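MITF ILMN_2304186 kept its call and direction against siNEG under every alternative run. The pooled count of member probes that rose was 3, and 5 with the average of the 2 siRNA contrasts, which added TFAP2A ILMN_2374115 (adjusted p = 0.01) and SNAI2 ILMN_1655740 (adjusted p = 0.021). Leaving out single arrays gave between 1 and 3 such probes, and likewise 1 to 3 genes, with 1 without siNEG replicate 2 or siNEG replicate 4. TFAP2A ILMN_1765574 lost its pooled call without siNEG replicates 1 to 4 in turn (adjusted p = 0.085, 0.11, 0.11 and 0.082), without #1 siCITED1 replicate 2 (0.056) and with a robust prior (0.058), and its call with #3 without siNEG replicates 1, 2 and 3 (0.059, 0.1 and 0.1) or #3 siCITED1 replicates 1, 2 and 3 (0.14, 0.087 and 0.096). SNAI2 ILMN_2082585 lost its pooled call without siNEG replicate 2 or 4 (0.053 each, with the rise at 0.49 and 0.50). Fits without an array hold fewer arrays, and for the others the cause was not tested. With 1 value per gene, TFAP2A was at 0.27 with #1 and 0.21 between the siRNAs, where TFAP2A probes of opposite sign and no call of their own are taken into that mean.

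Replicate numbers did not pair the arrays (correlation of deviations at the same number -0.054 to 0.098, own number best in 3 of 12). With the replicate block, TFAP2A ILMN_1765574 was at 0.48 pooled with adjusted p = 0.083, and over all probes 291 passed pooled, beside 525 without the block and 1692 with the average of the contrasts. The number of arrays, 4 in a group from 1 day, limits all of these values, and centred values do not show which probes were near background.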
